A study of Homo sapiens with 4 samples.

Results

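Receptor tyrosine kinases are single-pass membrane proteins that bind a growth factor or a matrix protein outside the cell and carry a tyrosine kinase domain inside it. In many of them, ligand binding brings 2 receptor chains together and the kinase domains phosphorylate each other. Adaptor proteins dock on the phosphotyrosines and pass the signal to the RAS-MAPK and PI3K-AKT cascades. In carcinoma cells these receptors drive proliferation, survival and invasion. The 10 growth factor receptors described here were chosen by name as receptors of epithelial cancer: EGFR, ERBB2, ERBB3, MET, AXL, IGF1R, INSR, FGFR1, DDR1 and MST1R. All 10 were found by gene name among the 60544 genes of the count table, and all 10 passed the filter on low counts that left 16802 genes for testing.

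The libraries came from PC3, an androgen-independent line of human prostate carcinoma grown in serum-containing medium. The control group, shNC, and the METTL3 knockdown group, sh812, had 2 libraries each, and neither group is labelled with a further treatment. The series design names METTL3 knockdown, and sh812 was taken as that arm, being the sole treatment label besides shNC. The knockdown rests on 1 hairpin label. The labels do not say whether the cells were a pool or a clone, nor whether replicates were separate cultures. The p-values below therefore set each group difference against the spread between these libraries, which may be technical. METTL3, the methyltransferase that writes N6-methyladenosine (m6A) on messenger RNA, had 1682 and 1379 counts in shNC and 269 and 313 in sh812, for a log2 fold change (log2 change below) of -2.42 (SE 0.11; edgeR adjusted p = 5.54e-14).

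Library depth ran from 31450648 to 37041330 counts. The epithelial label held, with all 7 epithelial markers detected at summed levels of 927 and 1038 CPM (counts relative to the library size after TMM scaling) in shNC and 1084 and 1146 CPM in sh812. Of these 7, EPCAM, CDH1, KRT18 and CLDN7 were called higher in sh812 and none lower. Of 7 luminal prostate markers, KLK3 and KLK2 had no count in any library, and 2 of the others, among them TMPRSS2, were called lower in sh812. Leukocyte and neuroendocrine markers summed to at most 1.13 CPM in each library. Fibroblast markers summed to between 18.0 and 21.9 CPM and endothelial markers to between 42.0 and 51.1 CPM, the latter almost all from PECAM1 and KDR, while CDH5 and VWF were near 0. The part of these marker differences in the receptor results was not tested.

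METTL3 and its partners modify adenosines inside a short consensus, of which GGACT (in the letters of DNA) is a frequent form, and the mark is known to be dense around stop codons. The sequence was therefore counted in 1 coding transcript per gene, the longest that GENCODE 29 tags as principal, on the sense strand. All 10 receptors held at least 1 copy, and so did 91.6% of the 13220 tested genes with such a transcript. Within 200 bases of the stop codon, EGFR, MET, INSR and FGFR1 held a copy, 4 of 10 receptors, against 37.1% of all genes. The copies nearest the stop codon are shown for EGFR, MET and INSR, which had a copy within that distance, and for AXL for comparison. EGFR was the only receptor called, and MET and AXL were the most abundant. The FGFR1 copy is not shown. The 5 motif letters are in capitals with 8 flanking bases on each side, 5′ to 3′ in the sense of the transcript.
EGFR: taccagcaGGACTtctttccc
MET: ctattataGGACTtgtattgt
INSR: cttaaggtGGACTcgtttggt
AXL: gtctggatGGACTgtatgcct
The EGFR copy lies in the coding part of the last exon, exon 28, 109 bases from the end of the stop codon (GRCh38, chr7:55205498-55205518, plus strand). The MET copy lies in the 3′ UTR within exon 21, 115 bases from that point (chr7:116796229-116796249, plus strand). The INSR copy lies in the 3′ UTR within exon 22, 152 bases from it (chr19:7116894-7116914, minus strand). The AXL copy is coding, starts in exon 19 and lies 354 bases from the stop codon. These are matches of letters, and methylation at them was not measured in this experiment.

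The density of the motif differed between the receptors. The EGFR transcript held 12 copies, or 1.22 per kb, a density above that of 67.0% of genes. That of MET held 11, or 1.66 per kb, and that of AXL 8, or 1.69 per kb, both denser than EGFR. That of ERBB2 was the sparsest, with 3 copies and 0.660 per kb. The median over the 10 receptors was 1.20 per kb and that over all genes was 0.932 per kb.

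The comparison of sh812 with shNC asked whether the receptor repertoire of these cells shifted when METTL3 was reduced. EGFR, the receptor of epidermal growth factor and its relatives, was lower in sh812, at 83.3% of its control level. It was the only receptor of the 10 called in edgeR's quasi-likelihood test at a Benjamini-Hochberg adjusted p under 0.05. Among all genes tested, 5.42% were called lower, 5.43% higher and 10.8% in either direction, so 1 call in 10 receptors is a share near the background. The fitted changes of the other 9 receptors ran from -0.17 in ERBB3 to 0.09 in MET on the log2 scale. The median of the 10 was -0.04, against -0.01 over all genes, with 7 fitted lower and 3 higher.

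**Figure D1:**
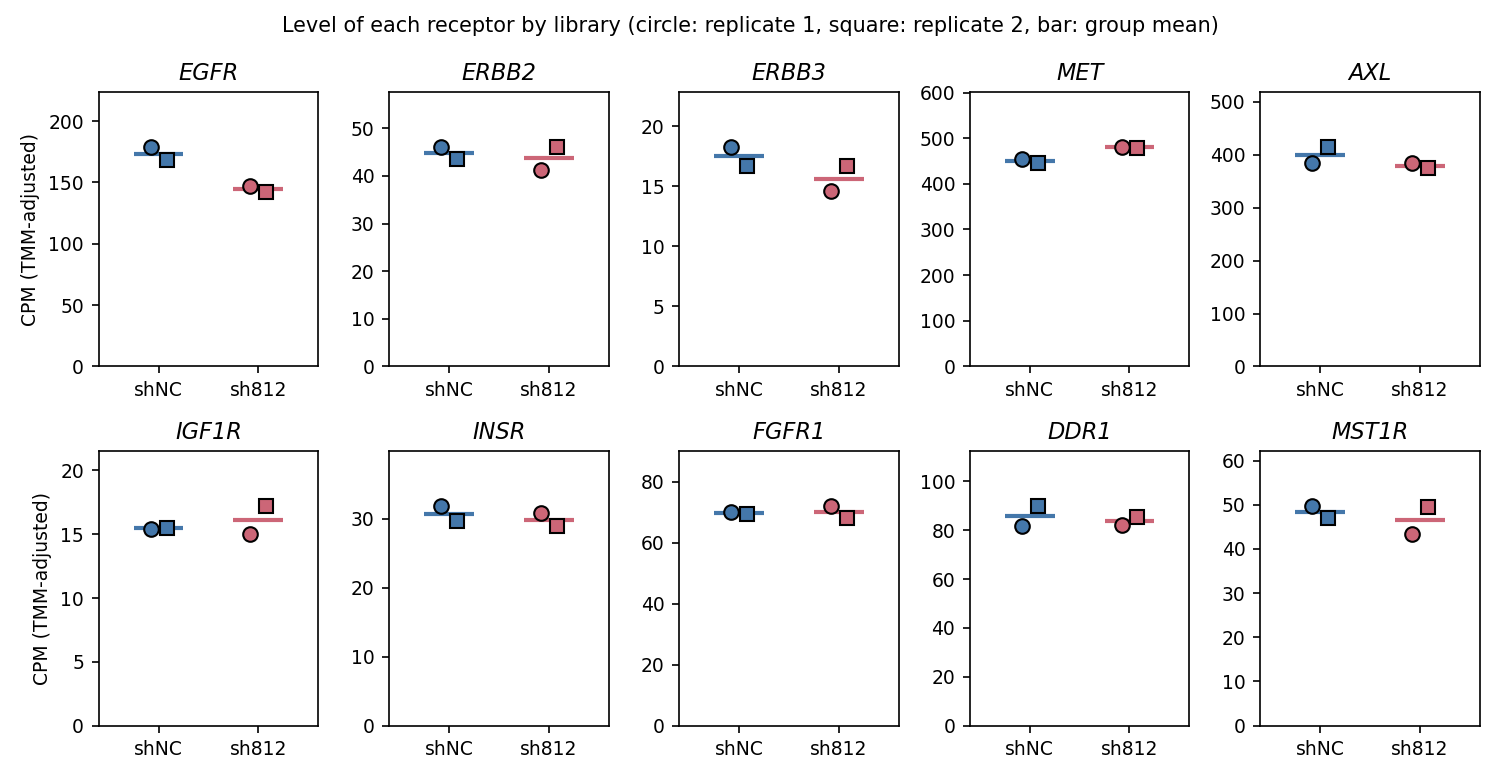
Level of each of the 10 receptors in CPM scaled to the TMM-adjusted library size (vertical axes start at 0 and differ between panels), in the 2 shNC (blue) and 2 sh812 (red) libraries; circles are replicate 1, squares replicate 2 and bars the group means. EGFR is lower in both sh812 libraries (147 and 142 CPM) than in both shNC libraries (179 and 168 CPM), while the points of ERBB2, IGF1R, INSR, FGFR1, DDR1 and MST1R overlap between groups.

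Within the ERBB family, EGFR had 6782 and 5300 counts in shNC and 5155 and 5075 in sh812, which is 179 and 168 CPM against 147 and 142 CPM. Both knockdown libraries lay below both controls. The means were 173 ± 7.93 and 144 ± 3.56 CPM (SD, n = 2), the log2 fold change was -0.26 (SE 0.06), and the adjusted p was 0.00668 in edgeR. The 95% interval of the change, -0.39 to -0.14, corresponds to 0.76 to 0.91 times the control level. EGFR (ENSG00000146648) lies on chromosome 7 from 55019021 to 55211628 on the plus strand in GENCODE 29. Its exons share 186 bases with the antisense gene EGFR-AS1, which had between 1 and 6 counts per library.

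The EGFR call was lost with either knockdown library left out, while the size of the change moved little. Without sh812 replicate 1 the log2 fold change was -0.29 (SE 0.10) and without sh812 replicate 2 it was -0.24 (SE 0.10). With all 4 libraries it was -0.26 (SE 0.06). Calls over all genes also fell in those fits, which leave 1 sample in sh812 and take the spread from shNC. Without shNC replicate 1 the EGFR change was -0.22, and without shNC replicate 2 it was -0.30.

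ERBB2, the ligandless partner that pairs with the other ERBB receptors, was at 46.0 and 43.5 CPM in shNC and 41.3 and 46.1 CPM in sh812. The groups overlapped, and the log2 change of -0.04 (SE 0.08; edgeR adjusted p = 0.849) had an interval from -0.21 to 0.14. ERBB3, a neuregulin receptor whose own kinase is nearly inactive and which signals to PI3K through its partners, had 18.3 and 16.7 CPM in shNC and 14.6 and 16.7 CPM in sh812. The higher sh812 library and the lower shNC library had almost the same level. Its log2 change of -0.17 (SE 0.12; edgeR adjusted p = 0.397) had the interval -0.41 to 0.07, which holds both no change and a change as large as that of EGFR. Whether EGFR fell more than its relatives therefore cannot be read from the calls. The per-kb ratio of EGFR to ERBB2 within a library, which no scaling of the library alters, was 3.21 and 3.17 in shNC and 2.93 and 2.54 in sh812. That of EGFR to ERBB3 was 7.03 and 7.23 in shNC and 7.28 and 6.14 in sh812, so the 2 groups overlapped.

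MET, the receptor of hepatocyte growth factor (HGF), had the most counts of the 10, with 17222 and 14115 in shNC and 16880 and 17127 in sh812. Its level was 454 and 446 CPM in shNC and 481 and 479 CPM in sh812. The sh812 libraries were the higher ones and did not overlap the controls, but the log2 change of 0.09 (SE 0.06) did not pass (edgeR adjusted p = 0.325). MET and EGFR thus differed in the sign of their fitted change. Within a library the per-kb ratio of MET to EGFR was 4.52 and 4.74 in shNC and at least 5.82 in sh812, with no overlap, and with 4 libraries an exact permutation test of such a ratio cannot give a p under 0.333. MST1R (RON), the relative of MET that binds macrophage-stimulating protein, had 49.7 and 47.1 CPM in shNC and 43.5 and 49.5 CPM in sh812. The groups overlapped, and the log2 change was -0.06 (SE 0.08; edgeR adjusted p = 0.730).

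AXL, the GAS6 receptor of the TAM family that is known for its place in mesenchymal and drug-resistant carcinoma cells, was at 385 and 415 CPM in shNC and 384 and 375 CPM in sh812. Replicate 1 of shNC and replicate 1 of sh812 were almost level, and the fitted change was -0.08 (SE 0.06; edgeR adjusted p = 0.457). The control replicates of AXL differed by more than the group means did. Its fitted change was -0.13 with shNC replicate 1 left out and -0.02 with shNC replicate 2 left out.

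IGF1R, the receptor of the insulin-like growth factors, had 15.4 and 15.5 CPM in shNC and 15.0 and 17.2 CPM in sh812, a log2 change of 0.06 (SE 0.12; edgeR adjusted p = 0.809). The sh812 libraries lay on either side of the controls. INSR, the insulin receptor, had 31.8 and 29.6 CPM in shNC and 30.8 and 28.9 CPM in sh812, and the log2 change was -0.04 (SE 0.09; edgeR adjusted p = 0.837). The groups overlapped in both genes.

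FGFR1, a fibroblast growth factor receptor, had 70.0 and 69.4 CPM in shNC and 72.0 and 68.2 CPM in sh812, the sh812 libraries enclosing both controls. Its log2 fold change was 0.01 (SE 0.07, edgeR adjusted p = 0.964). The interval from -0.14 to 0.15 corresponds to 0.91 to 1.11 times the control level. DDR1, a receptor for collagen and not for a soluble factor, had 81.8 and 89.9 CPM in shNC and 82.0 and 85.6 CPM in sh812. Both sh812 values lay between the controls, and the log2 change was -0.03 (SE 0.07; edgeR adjusted p = 0.824).

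The ranges of the groups did not overlap in 4 of the 10 receptors (EGFR, ERBB3, MET and AXL), a smaller share than the 53.6% of all genes tested. For the 9 receptors that were not called, the 95% intervals reached at most 0.75 times the control level on the low side, in ERBB3, and 1.23 times on the high side, in IGF1R. These intervals do not show that the receptors kept their level. MET lies on chromosome 7 from 116672390 to 116798386, AXL on chromosome 19 from 41219203 to 41261766 and ERBB3 on chromosome 12 from 56076799 to 56103505, all on the plus strand. No other gene shares exon bases with MET, IGF1R or INSR in this annotation. ERBB2 overlaps PGAP3 and MIEN1 on the opposite strand, FGFR1 overlaps LETM2 and METTL3 overlaps TOX4. If strand was not used in the counting, reads there may be shared or left uncounted.

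**Figure D2:**
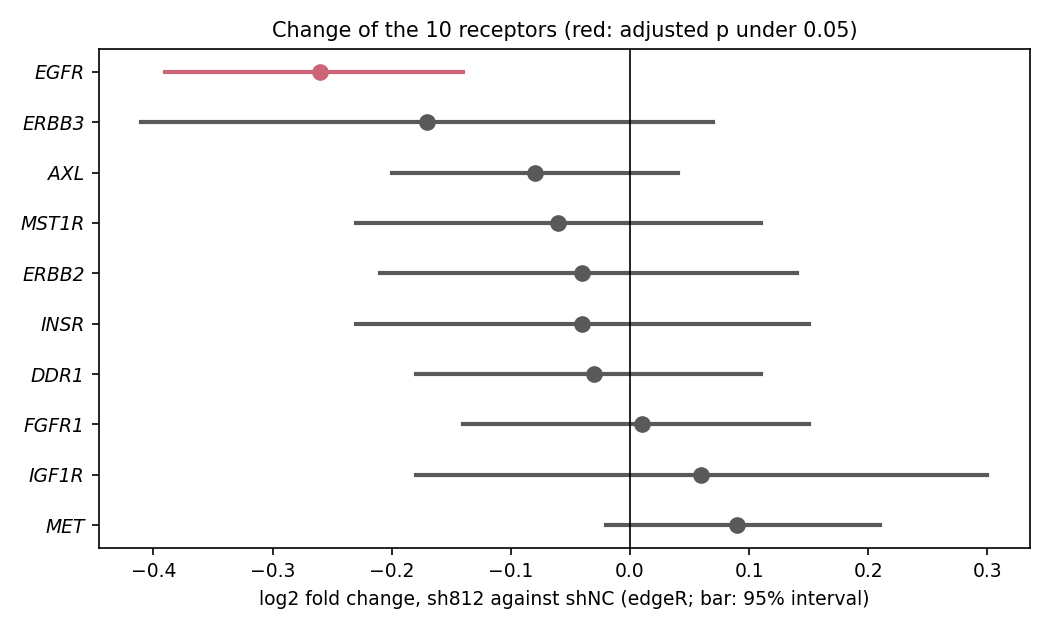
Log2 fold change of each receptor in sh812 against shNC from edgeR (horizontal axis), with bars for the 95% interval; red marks an adjusted p under 0.05. The interval of EGFR, -0.39 to -0.14, is the only one of the 10 that leaves out 0.

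Levels of different genes were compared per kb of exon, from the exon union of GENCODE 29, which counts exons that PC3 may not use. In shNC, AXL stood at 77.7 ± 4.13 and MET at 64.0 ± 0.776 CPM per kb (SD, n = 2). EGFR followed at 13.8 ± 0.633 CPM per kb, then DDR1 at 9.41 ± 0.627, MST1R at 9.22 ± 0.359, FGFR1 at 5.04 ± 0.0301 and ERBB2 at 4.34 ± 0.165 CPM per kb. INSR at 2.94 ± 0.152, ERBB3 at 1.94 ± 0.127 and IGF1R at 1.11 ± 0.000658 CPM per kb were the lowest. Of the neighbours in this order, DDR1 and MST1R overlapped, each being the higher in 2 of the 4 libraries. The other neighbours kept their order in all 4, but the libraries share 1 length per gene, so this does not test the lengths. The transcript used for the motif count had 3942 bases in DDR1 against 9122 of exon union, and 9821 against 12521 in EGFR. With other lengths the order, ratios, shares and ranks between genes can differ, and DDR1 could stand above EGFR. AXL and MET together held 74.2% and 75.3% of the summed per-kb level of the 10 receptors in shNC and 76.5% and 75.6% in sh812. The share of EGFR was 7.61% and 7.00% in shNC and 6.28% and 6.08% in sh812.

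Set in the whole family of 58 receptor tyrosine kinases, the 10 receptors held between 45.4% and 46.6% of the summed per-kb level in each library. EPHA2, an ephrin receptor, was the highest of the family at 152 CPM per kb in shNC, above AXL and MET. AXL and MET held ranks 2 and 3, EGFR rank 5, and IGF1R, the lowest of the 10, rank 24. Of the 48 other family members 34 were tested, and 2 were called higher and 4 lower (17.6%, against 10.8% of all genes). With either sh812 library left out 1 of the family was called lower.

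**Figure D3:**
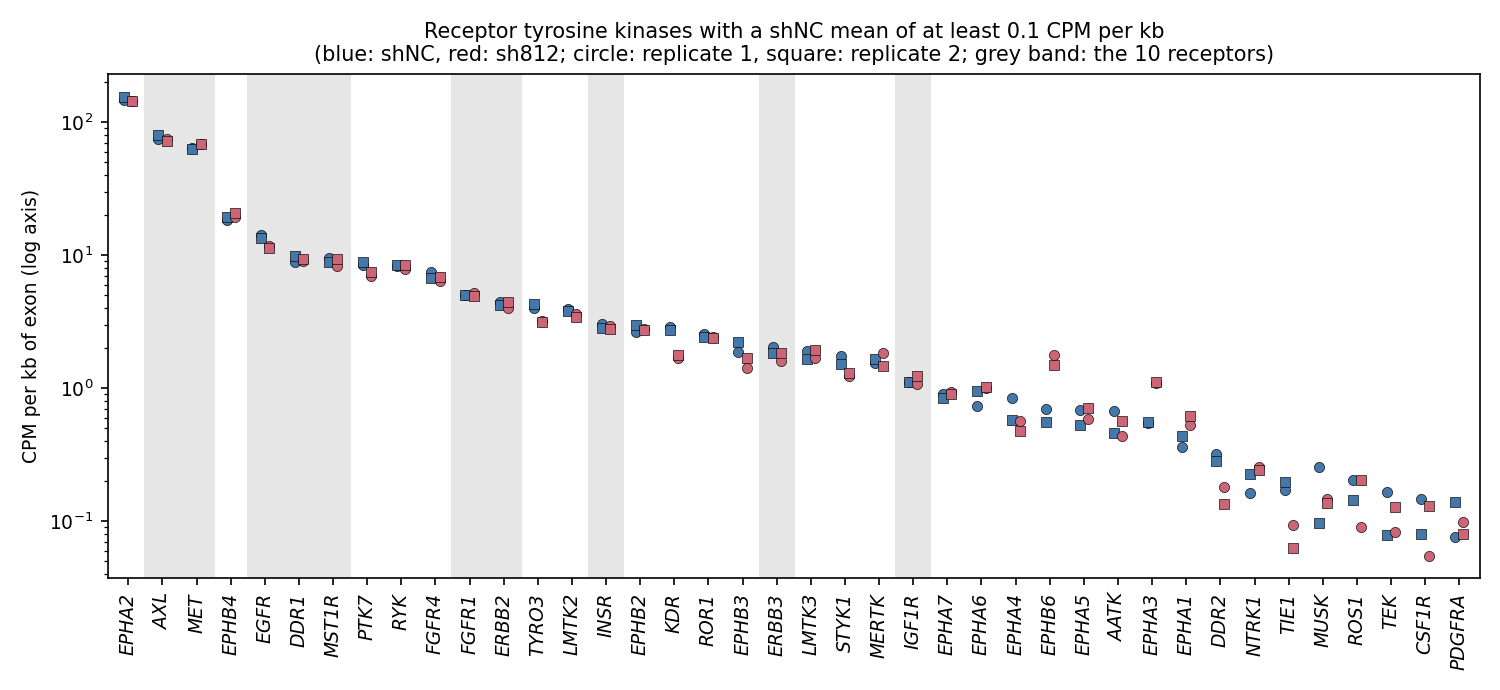
Level in CPM per kb of exon (log axis) of the receptor tyrosine kinases with a shNC mean of at least 0.1 CPM per kb, ordered by that mean, in each shNC (blue) and sh812 (red) library; grey bands mark the 10 receptors. AXL and MET lie between 63.4 and 80.6 CPM per kb in every library, and the 10 receptors reach down to IGF1R at 1.08 to 1.23 CPM per kb.

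EPHB6, an Eph receptor without kinase activity, rose from 3.36 ± 0.545 to 8.68 ± 1.06 CPM (SD, n = 2), a log2 change of 1.36 (edgeR adjusted p = 1.72e-05). EPHA3 rose from 3.68 to 7.33 CPM (log2 change 0.99; edgeR adjusted p = 0.000552). KDR, the main receptor of vascular endothelial growth factor, fell from 18.4 ± 0.696 to 11.4 ± 0.444 CPM (SD, n = 2), and the log2 change was -0.69 (edgeR adjusted p = 0.000343).

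TYRO3, the TAM relative of AXL, fell from 45.4 ± 2.54 to 34.7 ± 0.313 CPM (SD, n = 2), and the log2 change was -0.39 (edgeR adjusted p = 0.00366). The per-kb ratio of AXL to TYRO3 was 18.8 and 18.7 in shNC and 23.4 and 23.1 in sh812. DDR2, the collagen-binding relative of DDR1, fell from 3.24 to 1.70 CPM (log2 change -0.94; edgeR adjusted p = 0.0262) on 52 to 131 counts per library, and DESeq2 gave it no adjusted p. PTK7, a Wnt co-receptor with an inactive kinase, fell from 77.9 to 65.5 CPM (log2 change -0.25; edgeR adjusted p = 0.0226), and did not pass with the length trend removed (-0.18, adjusted p = 0.0998).

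Ligands of the 10 receptors were called in both directions, 2 higher and 4 lower of 19 tested (31.6%, against 10.8% of all genes). DESeq2 called 2 lower, and 1 or 0 were called lower without sh812 replicate 1 or 2, with 1 called higher in both cases. Among those that bind EGFR, AREG (amphiregulin) and TGFA (transforming growth factor alpha) rose while the receptor fell. AREG had 630 and 442 counts in shNC and 959 and 865 in sh812, and its mean rose from 15.3 ± 1.86 to 25.7 ± 2.23 CPM (SD, n = 2), a log2 change of 0.75 (SE 0.11; edgeR adjusted p = 8.47e-05). TGFA rose from 115 ± 4.68 to 143 ± 1.19 CPM (SD, n = 2), a log2 change of 0.31 (SE 0.06; edgeR adjusted p = 0.00191). Another EGFR ligand, EPGN (epigen), fell from 19.7 to 15.5 CPM (log2 change -0.35; edgeR adjusted p = 0.0448) and lost its call in DESeq2 (adjusted p = 0.140). EGF itself had a mean of 3.88 CPM with shNC and 2.60 CPM with sh812 (edgeR adjusted p = 0.111), and HBEGF had 106 and 100.2 CPM (edgeR adjusted p = 0.484). EREG and BTC, also not called, were fitted higher, with log2 changes of 0.71 and 0.33 (edgeR adjusted p = 0.167 and 0.144).

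For the other receptors, FGF5, an FGFR1 ligand, fell from 39.7 ± 3.25 to 28.0 ± 2.22 CPM (SD, n = 2), a log2 change of -0.51 (edgeR adjusted p = 0.000787). COL4A1 and COL4A2, chains of the basement membrane collagen that DDR1 can bind, had log2 changes of -0.27 and -0.29 (edgeR adjusted p = 0.0294 and 0.00472). COL4A1 did not pass in DESeq2 (adjusted p = 0.0660) or with the length trend removed (adjusted p = 0.142). HGF had 24 to 50 counts per library and GAS6 means of 16.9 CPM with shNC and 17.5 CPM with sh812 (edgeR adjusted p = 0.299 and 0.851). INS and IGF1 had no count in any library, and IGF2 had between 0 and 16 counts. The annotation places most exon bases of IGF2, and part of those of INS, within other genes on the same strand. IGF1 overlaps HELLPAR on the opposite strand. Reads there may have been left uncounted, so these counts do not show that the ligands were absent.

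Adaptors and effectors downstream of the receptors gave no call in 34 tested genes, among them GRB2, SHC1, the RAS and RAF genes and AKT1. At an unadjusted p under 0.05, 8 of the 34 were lower in sh812 and 0 higher, among them GRB2, GAB2, FRS2, SOS2, PIK3R3 and MAPK3. Over all 16802 genes tested, 2166 were lower and 1995 higher at that unadjusted p. The smallest adjusted p of the list was that of PIK3R3, at 0.0625 in edgeR. DESeq2 and limma-voom also called 0 genes of the list, and with library size alone 5 were called lower. A mean CPM filter gave 1 lower call, and leaving out shNC replicate 1 or 2 gave 2 or 4. The list median of the log2 fold change was -0.09. STAT3, which PC3 is known to have lost, had 22 to 48 counts per library, and PIK3R2 was listed at 0 in all libraries, and the annotation places most of its 4524 exon bases within another gene on the same strand.

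Negative regulators and turnover genes gave 5 calls in 33 tested genes (15.2%, against 10.8% of all genes), all lower in sh812. Lower calls numbered 9 with library size alone, 10 without shNC replicate 2 and 1 with either sh812 library left out. Removing the length trend or shNC replicate 1 gave 1 higher call, and removing shNC replicate 2 gave 2. The 3 genes of the ESCRT-0 complex, which sorts ubiquitinated receptors from the endosome towards the lysosome, were among them, a grouping chosen after the values were seen. HGS fell from 102 ± 1.73 to 83.7 ± 0.702 CPM (SD, n = 2), STAM from 33.4 ± 0.601 to 26.3 ± 0.678 CPM and STAM2 from 55.5 ± 2.12 to 46.3 ± 1.78 CPM. Their log2 changes were -0.29, -0.34 and -0.26 (edgeR adjusted p = 0.00559, 0.0149 and 0.0285). STAM2 did not pass in DESeq2 (adjusted p = 0.0621) or with the length trend removed (adjusted p = 0.0662). The exons of HGS overlap 3 genes on the opposite strand.

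SOCS3 and SOCS2, feedback inhibitors induced by cytokine signalling, had log2 changes of -0.54 and -0.40 (edgeR adjusted p = 1.64e-05 and 0.00810). CBL, a ubiquitin ligase that marks EGFR and MET for degradation, had a mean of 76.8 CPM with shNC and 72.3 CPM with sh812 (edgeR adjusted p = 0.483). ERRFI1 (MIG6), an inhibitor that binds the EGFR kinase domain, was at 668 and 631 CPM (edgeR adjusted p = 0.414).

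Genes of receptor processing and shedding were called higher in 2 and lower in 2 of 15 (26.7%, against 10.8% of all genes). Lower calls numbered 4 without shNC replicate 2 and 0 with either sh812 library left out, and higher calls 0 without sh812 replicate 2. TIMP1, a metalloprotease inhibitor, rose from 476 to 608 CPM (log2 change 0.35; edgeR adjusted p = 0.000743), and TIMP2 fell from 273 ± 15.6 to 229.9 ± 4.27 CPM (SD, n = 2; log2 change -0.25; edgeR adjusted p = 0.00866). ADAM12 fell from 21.5 to 15.5 CPM (edgeR adjusted p = 0.00510). ADAM8 rose from 75.3 ± 1.88 to 94.1 ± 16.4 CPM (SD, n = 2; log2 change 0.32; edgeR adjusted p = 0.0138), and was 0.13 without sh812 replicate 2. ADAM10, ADAM17 and FURIN, the usual sheddases and the convertase that cleaves the MET, IGF1R and INSR precursors, were not called.

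Co-receptors and ligand-binding partners gave 3 genes higher and 4 lower of 17 (41.2%, against 10.8% of all genes). DESeq2 called 1 higher, as did the fit without sh812 replicate 2, and 2 were lower with either sh812 library left out. IGFBP3, which sequesters insulin-like growth factors, fell from 663 ± 34.0 to 300.4 ± 39.0 CPM (SD, n = 2), a log2 change of -1.14 (SE 0.07; edgeR adjusted p = 2.95e-11). IGF2R, the scavenger receptor of IGF2, fell from 227 to 194 CPM (log2 change -0.23; edgeR adjusted p = 0.0121) and did not pass with the length trend removed (-0.14, adjusted p = 0.136). SDC3, a heparan sulfate proteoglycan, fell from 41.1 ± 0.425 to 25.2 ± 0.395 CPM (SD, n = 2; log2 change -0.71; edgeR adjusted p = 6.82e-06).

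In the other direction, NRP2, a neuropilin co-receptor, rose from 48.9 ± 2.29 to 70.1 ± 0.237 CPM (SD, n = 2; log2 change 0.52; edgeR adjusted p = 4.29e-05). ITGB4, the integrin chain that associates with MET and the ERBB receptors, had 204 and 244 CPM in shNC and 249 and 344 CPM in sh812 (log2 change 0.40; edgeR adjusted p = 0.00728). Its call was lost in DESeq2 (adjusted p = 0.377), and the change was 0.15 without sh812 replicate 2. SDC2 rose from 17.7 to 22.5 CPM (log2 change 0.34; edgeR adjusted p = 0.0374) and did not pass in DESeq2 (adjusted p = 0.104) or with library size alone (adjusted p = 0.0765).

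**Figure D4:**
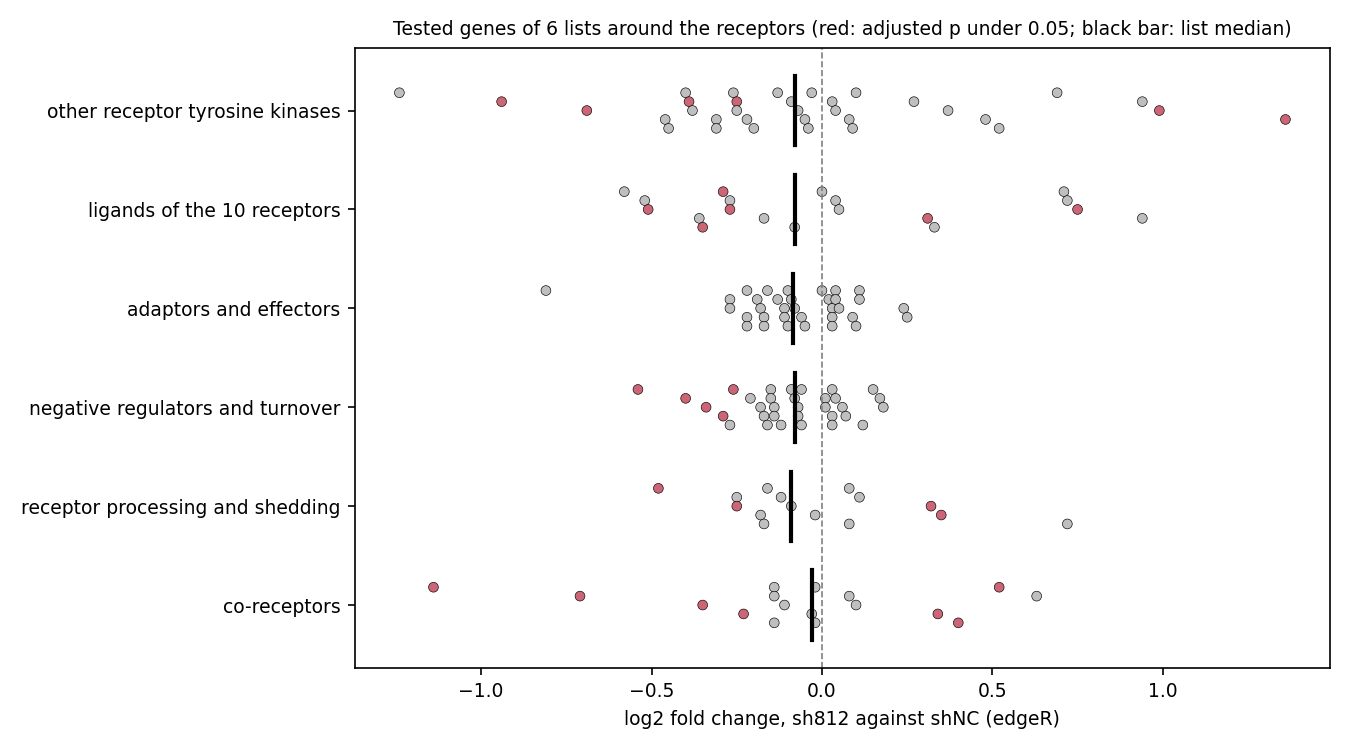
Log2 fold change in sh812 against shNC (horizontal axis) of every tested gene of 6 lists around the receptors; red marks an adjusted p under 0.05 in edgeR and black bars the list medians. The adaptors and effectors show no red point among 34 genes, the 5 red points of the negative regulators lie below 0, and the medians lie between -0.09 and -0.03.

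Over the 6 lists together, 9 genes were called higher and 19 lower of 152 tested, or 18.4%, against 10.8% of all genes. The lists were chosen with earlier results of these data known. They were not matched to all genes by expression level, so these shares do not show an excess of calls. Of the 27 called genes named above, AREG, EPHA3, EPHB6, IGFBP3, KDR, NRP2, SDC3 and SOCS3 were called whichever library was left out. The other 19 all lost the call without sh812 replicate 2, 15 of them also without sh812 replicate 1 and 4 without shNC replicate 1. Scaled to library size with no TMM factor, 32 were called lower and 8 higher, and over all genes 1328 lower and 561 higher, against 910 and 912.

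The receptors are long genes. Their exon unions ran from 5154 to 13941 bases, with a median of 9722 bases against 4423 over all genes tested, and all 10 were above that median. With each library's trend on exon length removed, the log2 change of EGFR was -0.18 and still passed (edgeR adjusted p = 0.0442). The median of the 10 receptors then turned from -0.04 to 0.04, and ERBB2, INSR and DDR1 changed sign.

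**Figure D5:**
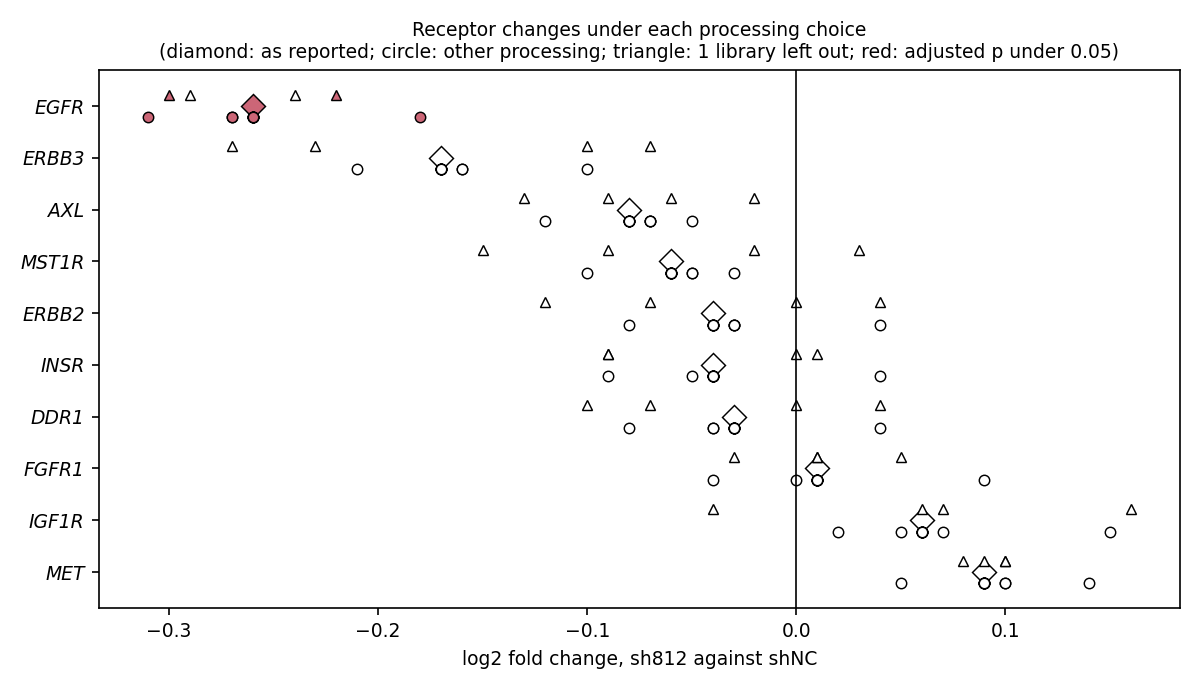
Log2 fold change of each receptor in sh812 against shNC (horizontal axis) as reported (diamond), under 10 other processing choices (circles) and with 1 library left out (triangles); red marks an adjusted p under 0.05. EGFR stays below 0 throughout, from -0.31 to -0.18, with 2 open triangles for the sh812 libraries left out, and no other receptor has a red point.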

How the data were processed

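Poly(A) RNA of 4 PC3 libraries was sequenced as paired reads of 150 bases from a strand-keeping library, per the labels' protocols. The authors deposited raw counts per gene for each library. The submitters' processing notes name fastp, STAR 2.7.1a, featureCounts and DESeq2 with build hg38. Which annotation was counted, and with which strand setting, is not given in the sources used here. Reads on overlapping genes may therefore have been shared or left uncounted.

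Testing used edgeR 4.0.16 under R 4.3.3 (filterByExpr, TMM, glmQLFit, glmQLFTest, group as the only term, all 4 libraries), two-sided, with Benjamini-Hochberg adjustment over 16802 genes and a threshold of 0.05. Fold changes use a prior count of 0.125, and SE and 95% intervals come from the quasi-likelihood F statistic. CPM are scaled to TMM-adjusted library sizes. Replicates differed beyond sampling noise (chi-square per gene 8.43 in shNC and 4.51 in sh812) and were kept apart. Positions, exon lengths and sequences are from GENCODE 29 (GRCh38), not from the authors.

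The receptors and the lists were chosen with earlier results of these data known. Named are all 10 receptors, METTL3 and the called genes of each list (beyond 6, the 3 with the smallest p in each direction); genes named without a call are examples chosen after their values were seen. Some genes that the rule selects are left out here. Alternatives were RLE, upper quartile and no scaling factors, 2 other low-count filters, DESeq2 1.42.0, limma-voom (limma 3.58.1), a replicate block, a prior count of 2, a lowess length offset of span 0.3 and each library left out. In data simulated on these libraries (16437 genes tested), edgeR recovered 62% of changes of log2 0.5 and 90% of changes of log2 1, with 7 false calls. Changes as small as those fitted for the 10 receptors were not simulated, so these rates do not apply to them.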

Additional observations from a re-analysis of the deposited data

How the results depend on the processing

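METTL3 was called under every alternative. EGFR kept its direction under all of them and its call under those that kept 4 libraries. Leaving out a library leaves 1 sample in a group, assumed to vary like the other group: the EGFR value then ran from -0.30 to -0.22, and the number of receptors called lower from 0 (with either sh812 library left out) to 1. Among uncalled receptors, ERBB2, INSR and DDR1 turned to 0.04 each with the length trend removed, and FGFR1 to -0.04 with library size alone. With a library left out, ERBB2 ran from -0.12 to 0.04, INSR from -0.09 to 0.01, DDR1 from -0.10 to 0.04, FGFR1 from -0.03 to 0.05, MST1R from -0.15 to 0.03, and IGF1R from -0.04 to 0.16. The co-receptor median turned to 0.02 and the median of the 10 receptors to 0.04 with the length trend removed, and the ligand median ran from -0.16 to 0.09 with a library left out. Library size alone gave 561 genes called higher over all genes and 32 list genes lower (19 in the report), moved the median of all genes to -0.050, and gave shNC means of 457 CPM for MET, 15.7 for IGF1R and 70.7 for FGFR1. DESeq2 called 585 genes lower. With a library left out, calls ran from 130 to 1743 higher and 183 to 1583 lower over all genes, and from 4 to 13 higher and 4 to 31 lower in the lists. The causes of these differences were not tested. Of the 27 called list genes with values here, 7 lost the call in 10 of 242 values with 4 libraries (DDR2, which has no adjusted p in DESeq2, is not counted there), and 19 in 38 of 108 with 1 left out; none changed sign. Same-numbered replicates are not said to share a batch, and their deviations correlated at 0.0164. The replicate block gave 1003 higher and 998 lower calls over all genes, EGFR stayed at -0.26 (adjusted p = 0.00442 in edgeR) and no receptor changed its call. With 2 libraries per group, small changes of the less abundant receptors can be missed.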
